A study of Mus musculus with 19 samples.

Results

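Transcript levels of 9 genes of the Hippo pathway were examined in 19 single mouse embryos. The genes are Yap1, Wwtr1, Tead1, Stk3, Lats1, Lats2, Nf2, Amot and Amotl2, and they were taken by symbol from a table of 53379 gene entries. These 9 symbols matched 10 entries, because Lats2 was listed under 2 identifiers. All 9 genes passed the filter on low values (an FPKM of at least 1 in at least 2 of the embryos), as did 18410 genes in all.

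The embryos were made by in vitro fertilisation on a B6D2F1 background, cultured in KSOM under 5% CO2 and collected 96 hours after insemination. One cross joined Alyref+/- parents and gave 2 morulae labelled Alyref KO, with 3 morulae and 3 blastocysts that were non-KO. A second joined Gabpb1+/- parents and gave 3 morulae labelled Gabpb1 KO, with 2 morulae and 3 blastocysts that were non-KO, and WT parents gave a further 3 blastocysts. Non-KO embryos are WT or heterozygous, which the labels do not separate. Genotype was called by the submitters from missing reads over the deleted stretch in these same libraries, and no blastocyst carried a KO label. ALYREF is an adaptor for mRNA export, and GABPB1 is part of the GABP transcription factor. The question here is whether Hippo pathway transcripts differ with either genotype or between the stages. All embryos had the same age, so a stage difference here compares morulae of 96 hours with blastocysts of 96 hours. Stage and slower or halted development cannot be told apart.

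The Hippo pathway is a kinase relay that keeps the coactivators YAP (Yap1) and TAZ (Wwtr1) out of the nucleus. MST kinases such as STK3 activate LATS1 and LATS2, which phosphorylate YAP and TAZ. Unphosphorylated YAP and TAZ enter the nucleus and join TEAD proteins at DNA. In the preimplantation embryo the relay is active in inner cells, helped by the junction proteins NF2 and AMOT, and inactive in polarised outer cells, where nuclear YAP with TEAD4 turns on trophectoderm genes such as Cdx2 and Gata3 and lowers Sox2. Much of this control acts on the proteins, which were not measured.

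Gene counts summed to between 7.49 M and 31.5 M per embryo, and the 9 genes had between 15 and 3146 counts in an embryo. Alyref stood at 47.8 and 58.5 CPM (counts relative to library size, with TMM scaling) in the Alyref KO morulae, against 161 to 291 CPM in its non-KO morulae. Gabpb1 stood at 78.3, 259 and 151 CPM in the morulae labelled Gabpb1 KO, against 93.8 and 83.3 CPM in the non-KO morulae, so its total level does not check that label. The Alyref level is no independent check of its label either, which was called from missing reads in these same libraries. Summed levels of 10 trophectoderm marker genes ran from 4770 to 7574 CPM in blastocysts and from 351 to 4572 CPM in morulae. The highest morula sum was in Gabpb1 cross non-KO morula 1. Sums of 9 epiblast marker genes ran from 362 to 1022 CPM over all embryos. Sums of 8 cumulus cell markers were at most 0.896 CPM in any embryo, and none passed the filter. A whole embryo was lysed for each library, so fewer cells of a type and less RNA per cell cannot be told apart. Each cross had its own fertilisations, and cross and batch cannot be told apart. The labels do not say whether embryos of a group came from 1 or several fertilisations, so p-values measure the spread between these embryos alone.

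The DNA before the start sites of the coactivator genes Wwtr1 and Yap1 is shown, a choice made with the results below known. On GRCm38, Wwtr1 lies at chr3:57455649-57575910 and Yap1 at chr9:7931999-8004596, both on the minus strand. The stretches are RefSeq promoter sequence of GRCm38.p6, the 150 bases before the start on the gene's strand, at chr3:57575911-57576060 and chr9:8004597-8004746. Capitals mark the letters GGAATG, the core that TEAD proteins bind, searched on both strands (CATTCC on the other).
Wwtr1: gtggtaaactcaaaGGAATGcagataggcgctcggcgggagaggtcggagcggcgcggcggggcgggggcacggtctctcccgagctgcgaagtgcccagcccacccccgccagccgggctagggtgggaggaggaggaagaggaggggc
Yap1: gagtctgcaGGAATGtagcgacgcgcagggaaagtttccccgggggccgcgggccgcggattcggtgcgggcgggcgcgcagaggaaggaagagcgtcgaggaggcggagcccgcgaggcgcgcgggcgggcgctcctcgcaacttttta
The letters stand at -136 to -131 from the Wwtr1 start and at -141 to -136 from the Yap1 start. RefSeq windows of 300 bases (250 before and 50 after a start) were held for 7 of the 9 genes, 10 windows in all. TEAD letters were in 5 of these 10 windows, those of Wwtr1 (2 overlapping windows), Yap1, Amotl2 and 1 of the 2 of Lats2, and in 14.7% of 32851 windows of that length. The 2 Wwtr1 windows hold the same bases GGAATG, counted once in each. By gene, 4481 of all 27025 symbols had the letters in a window. The letters CCGGAAG or CTTCCGG, one form of the site that GABP binds, were in none of the 10 windows and in 8.86% of all windows. Shorter or other forms of that site were not searched. A match is a run of letters and not a measured site.

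Levels of the 9 genes were compared with each other as FPKM, which is per length. Wwtr1 was the most abundant, with a mean of 26.4 ± 9.81 FPKM (SD, n = 19), and its lowest embryo, at 12.8 FPKM, was above every value of the other 8 genes. Then came Yap1 (4.50 ± 1.34 FPKM), Stk3 (4.35 ± 1.23), Amotl2 (3.77 ± 2.34), Nf2 (3.45 ± 0.850), Tead1 (2.54 ± 1.18), Amot (2.28 ± 1.15) and Lats2 (1.97 ± 0.777). Lats1 was lowest at 0.794 ± 0.344 FPKM. Below Wwtr1, neighbours in this order overlapped across the embryos. Wwtr1 stood at percentile 82 of the genes tested and Lats1 at percentile 15.1.

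**Figure D1:**
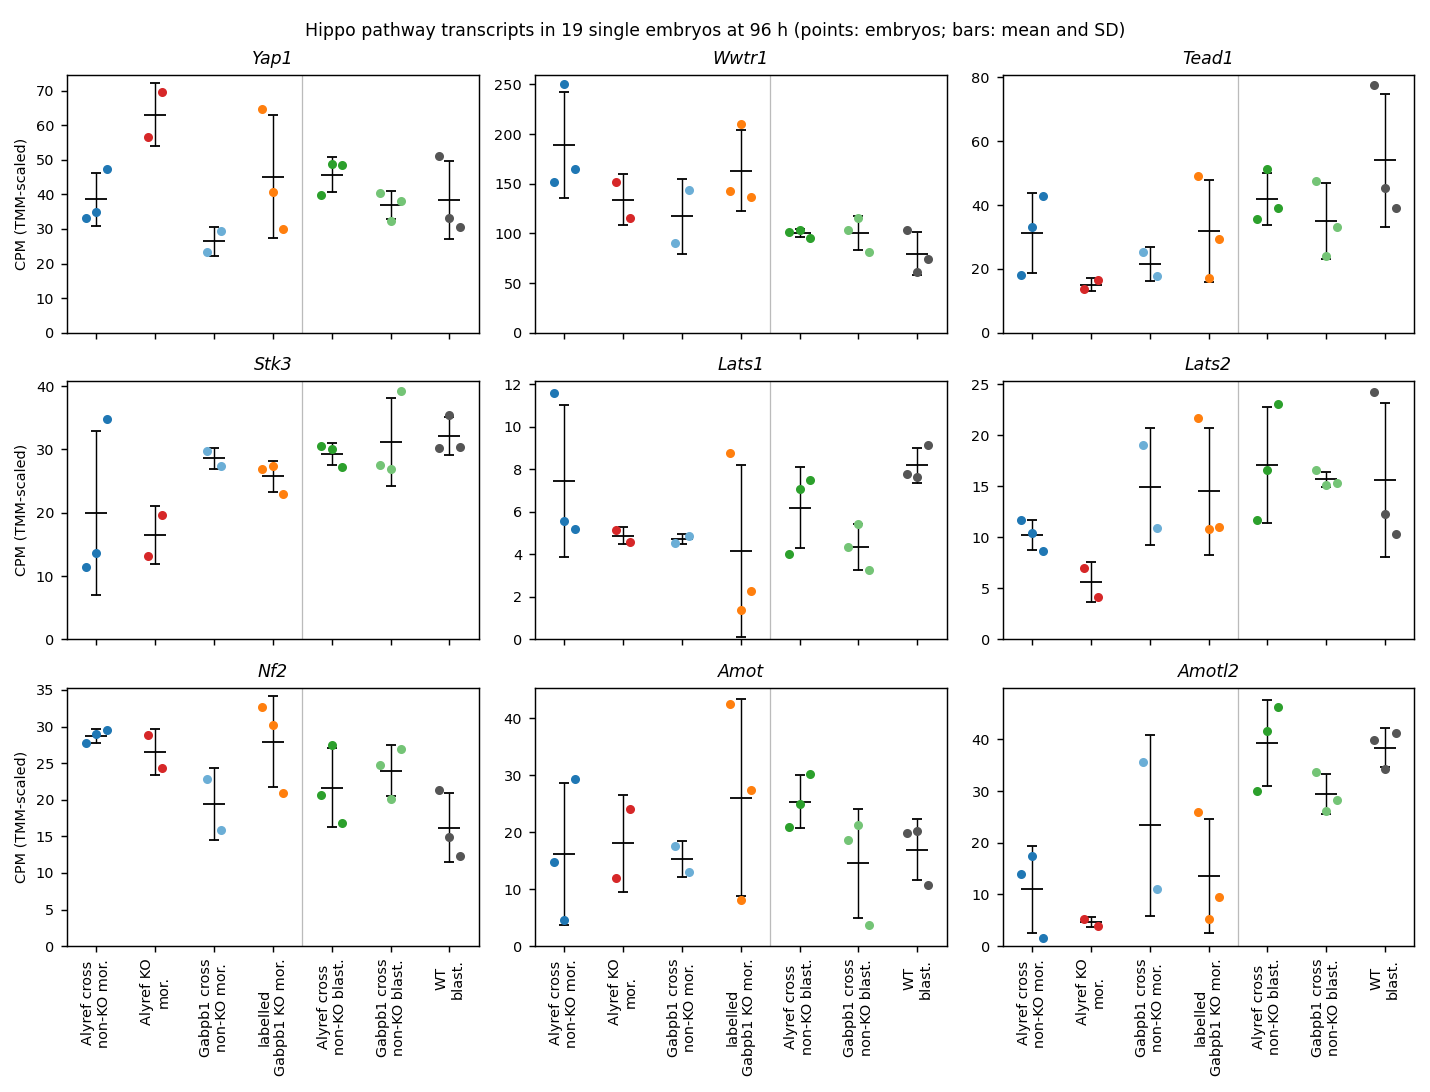
CPM of each of the 9 genes (vertical axes, from 0) in the 7 groups of embryos (horizontal axis); points are embryos, bars the mean and SD, and a grey line separates morulae from blastocysts. Wwtr1 lay between 61.1 and 116 CPM in blastocysts and reached 250 CPM in a morula, while Amotl2 was at least 26.2 CPM in every blastocyst and as low as 1.55 CPM in a morula.

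TAZ, the product of Wwtr1, is one of the 2 coactivators. In the Alyref cross Wwtr1 was at 152, 250 and 165 CPM in the non-KO morulae and at 101, 103 and 95.7 CPM in the non-KO blastocysts. Every blastocyst of that cross lay below every non-KO morula. The fitted log2 fold change from morula to blastocyst was -0.92 (SE 0.26), and it passed the threshold with an adjusted p of 0.0344 in edgeR's quasi-likelihood test with Benjamini-Hochberg adjustment over the 18410 genes. Wwtr1 was the 1 gene of the 9 that was called there, where 13.0% of all genes were (7.43% as lower in blastocysts). Of the 9 genes 2, Wwtr1 and Amotl2, had an unadjusted p under 0.05, against 31.1% of all genes. Epiblast marker sums were 911 to 1022 CPM in these morulae and 566 to 682 CPM in these blastocysts, and trophectoderm marker sums 654 to 2102 CPM and 4770 to 7574 CPM, without overlap. By gene, 9 of the 10 trophectoderm markers had log2 fold changes above 0 and 1 below, with 3 called higher in blastocysts and 1 lower. Of the 9 epiblast markers 7 were below 0 and 2 above, with 3 called lower. The part of these markers in the Wwtr1 difference was not tested. The call was lost with spike-in scaling (-1.09, adjusted p 0.294), without the filter on low values, with the compared groups fitted alone, and when any 1 of 5 embryos was left out. Without the sixth, non-KO morula 3, it stayed (-1.01, adjusted p 0.0219), where 4560 of all 18410 genes were called.

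The Gabpb1 cross gave Wwtr1 levels of 90.6 and 144 CPM in the non-KO morulae and 103, 116 and 81.4 CPM in the non-KO blastocysts. These overlapped, with a log2 fold change of -0.23 (SE 0.29). The difference between the stage differences of the crosses was 0.69 (SE 0.39) with an adjusted p of 0.448. In that test, added after values were seen, 0 of the 9 genes were called by edgeR or by DESeq2. Of all genes edgeR called 0.00543%, and DESeq2 called 336 of 18410. An unadjusted p under 0.05 was found for 0 of the 9, against 13.8% of all genes. Blastocysts of WT parents had 103, 61.1 and 74 CPM. Across the 19 embryos, all but 1 of the 10 morulae were above the highest blastocyst (116 CPM), although Alyref KO morula 2 also read 116 CPM after rounding. The exception, Gabpb1 cross non-KO morula 1, also had the highest trophectoderm marker sum among morulae, and the part of this in its Wwtr1 level was not tested.

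With an Alyref KO label Wwtr1 was at 152 and 116 CPM, against 152, 250 and 165 CPM without it, and the log2 fold change was -0.50 (SE 0.30). Morulae labelled Gabpb1 KO had 142, 210 and 137 CPM, against 90.6 and 144 CPM, with a log2 fold change of 0.48 (SE 0.30) that turned to -0.10 under spike-in scaling. The median of all genes was then -0.40, and Wwtr1 was 0.31 above it. Neither KO difference passed the test, and both sets of embryos overlapped. The difference between these KO differences was 0.97 (SE 0.42), with an unadjusted p of 0.0339 and an adjusted p of 0.255.

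YAP, encoded by Yap1, is the coactivator best known from the preimplantation embryo. Alyref KO morulae had 56.6 and 69.5 CPM of Yap1, and the non-KO morulae of the cross 33.3, 35.0 and 47.3 CPM. Both KO embryos lay above all 3 others, with a log2 fold change of 0.71 (SE 0.30), but the adjusted p was 0.351. Morulae labelled Gabpb1 KO had 64.6, 40.6 and 29.9 CPM against 23.4 and 29.4 CPM in the non-KO ones. Again each labelled embryo was above, with a log2 fold change of 0.77 (SE 0.31) and an adjusted p of 0.202. The gap between the lowest labelled and the highest non-KO embryo was small, 29.9 against 29.4 CPM. Leaving out any 1 embryo gave log2 fold changes of 0.53 to 0.89 in the Alyref cross and 0.42 to 0.98 in the Gabpb1 cross.

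Yap1 in blastocysts was at 39.8, 48.6 and 48.6 CPM in the Alyref cross, at 40.3, 32.3 and 38.0 CPM in the Gabpb1 cross and at 51.2, 33.0 and 30.5 CPM from WT parents. Stage differences were 0.24 (SE 0.27) in the Alyref cross and 0.48 (SE 0.31) in the Gabpb1 cross on the log2 scale. Neither passed the test, and under spike-in scaling they turned to -0.11 and -0.38. The medians of all genes were then -0.34 and -0.86, and Yap1 was 0.23 and 0.47 above them. Of the exonic bases of Yap1, 1.25% also belong to Gm20416, an annotated gene on the opposite strand.

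Tead1 encodes a TEAD protein, the DNA-binding partner of both coactivators, and lies at chr7:112679318-112906807 on the plus strand. It was at 13.6 and 16.6 CPM in the Alyref KO morulae and at 18.1, 33.1 and 42.8 CPM in the non-KO ones. The KO embryos were lowest, with a log2 fold change of -1.05 (SE 0.46), an unadjusted p of 0.0388 and an adjusted p of 0.373. Morulae labelled Gabpb1 KO had 49.1, 17.1 and 29.5 CPM and overlapped with the non-KO morulae at 25.3 and 17.6 CPM. The difference between the KO differences was 1.62 (SE 0.65) with an adjusted p of 0.224.

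Blastocysts had 35.6, 51.3 and 39.1 CPM of Tead1 in the Alyref cross, 47.6, 24.0 and 33.0 CPM in the Gabpb1 cross and 77.7, 45.4 and 38.9 CPM from WT parents. The highest Tead1 level was thus in a WT blastocyst. Stage differences were 0.42 (SE 0.40) and 0.70 (SE 0.46) on the log2 scale, neither past the threshold, and the second became -0.11 under spike-in scaling. The median of all genes was then -0.86 in that comparison, and Tead1 was 0.74 above it.

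Among the kinases, Stk3 encodes MST2, which activates the LATS kinases, and lies at chr15:34875496-35178921 on the minus strand. Non-KO morulae of the Alyref cross had 11.5, 13.7 and 34.8 CPM of Stk3. Non-KO morula 3 stood far above the other two, and comparisons with this group turn on it. Alyref KO morulae were at 13.2 and 19.7 CPM, inside that range. Non-KO blastocysts of the cross were at 30.5, 30.1 and 27.2 CPM, and the stage difference of 0.55 (SE 0.33) on the log2 scale did not pass the test. Without non-KO morula 3 it was 1.22 with an adjusted p of 0.00358, and limma with embryo weights gave 1.13 with an adjusted p of 0.00129. Of all 18410 genes, 4560 were called without that morula and 7236 with embryo weights.

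Stk3 was also measured in the other groups. Non-KO morulae of the Gabpb1 cross had 29.8 and 27.4 CPM, morulae labelled Gabpb1 KO 26.9, 27.4 and 22.9 CPM, and the non-KO blastocysts 27.5, 26.9 and 39.2 CPM. These groups overlapped, with log2 differences of -0.15 (SE 0.37) for genotype and 0.13 (SE 0.37) for stage. WT blastocysts had 30.3, 35.5 and 30.4 CPM. Comparing non-KO morulae between crosses, Stk3 did not pass the test (0.52, SE 0.37), but without Alyref cross non-KO morula 3 it was higher in the Gabpb1 cross by 1.19 with an adjusted p of 0.0120. Without that morula 2435 of all 18410 genes were called.

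Lats1 encodes one of the LATS kinases and lies at chr10:7681214-7716460 on the plus strand. Its counts were the lowest of the 9 genes. Alyref KO morulae had 5.15 and 4.60 CPM against 11.6, 5.57 and 5.18 CPM in non-KO morulae. The KO embryos were just below the others, with a log2 fold change of -0.61 (SE 0.60). Morulae labelled Gabpb1 KO had 8.78, 1.39 and 2.27 CPM, on both sides of the non-KO pair at 4.55 and 4.87 CPM. Lats1 in blastocysts was at 4.03, 7.07 and 7.49 CPM in the Alyref cross, 4.36, 5.45 and 3.28 CPM in the Gabpb1 cross and 7.77, 7.62 and 9.14 CPM from WT parents. The WT blastocysts were above all others, but the log2 differences of -0.40 (SE 0.52) and -0.91 (SE 0.53) for the Alyref and Gabpb1 crosses did not pass the test.

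Lats2, the paralog of Lats1, lies at chr14:57689662-57758388 on the minus strand. The second identifier that the table lists as Lats2 is Gm49361 in GENCODE M21, a read-through transcript of Lats2 and Xpo4 whose exons are all shared with one or the other. Of the exonic bases of Lats2, 42.4% are shared with it, and how reads there were assigned is not given in the sources used here. Lats2 values are therefore uncertain. The read-through had more counts than Lats2 in 3 of the 19 embryos, Alyref KO morula 2 and morulae 2 and 3 labelled Gabpb1 KO.

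Counts under the Lats2 identifier were 7.0 and 4.2 CPM in the Alyref KO morulae and 11.7, 10.4 and 8.68 CPM in the non-KO morulae. Both KO embryos were below, with a log2 fold change of -0.88 (SE 0.45) and an adjusted p of 0.457. Lats2 was at 21.7, 10.8 and 11 CPM in morulae labelled Gabpb1 KO and at 19 and 11 CPM in the non-KO ones, which overlapped. Blastocysts had 11.7, 16.6 and 23.1 CPM in the Alyref cross, 16.6, 15.2 and 15.3 CPM in the Gabpb1 cross and 24.3, 12.3 and 10.4 CPM from WT parents. The stage differences of 0.73 (SE 0.38) and 0.07 (SE 0.43) on the log2 scale did not pass the test. The read-through entry, tested on its own, had a log2 fold change of -0.24 (SE 0.38) in the Alyref KO comparison. In the Gabpb1 KO comparison it was 0.38 (SE 0.38), and embryos overlapped in both. Its stage differences were -0.03 (SE 0.34) in the Alyref cross and -0.57 (SE 0.37) in the Gabpb1 cross. In the latter every blastocyst was below every non-KO morula, and the entry was not called in any of these.

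Upstream, Nf2 encodes merlin, which brings the LATS kinases to the membrane, and lies at chr11:4765845-4849536 on the minus strand. In the Alyref cross the non-KO morulae had 27.7, 28.9 and 29.6 CPM of Nf2, and the KO morulae had 28.8 and 24.3 CPM. Non-KO blastocysts of the cross were all lower, at 20.7, 27.4 and 16.8 CPM, with a log2 fold change of -0.41 (SE 0.26) and an adjusted p of 0.304. Nf2 was at 32.6, 30.3 and 20.9 CPM in morulae labelled Gabpb1 KO, overlapping with 22.8 and 15.9 CPM in non-KO morulae (0.53, SE 0.30). Blastocysts of that cross had 24.8, 20.1 and 27.0 CPM and WT blastocysts 21.4, 14.8 and 12.3 CPM. Nf2 thus did not pass the test in any comparison.

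Amot encodes angiomotin, a junction scaffold that binds YAP and helps LATS act on it, and lies at chrX:145446425-145505181 on the minus strand. Its groups were wide. Alyref cross non-KO morulae had 14.8, 4.56 and 29.3 CPM and the KO morulae 12 and 24.1 CPM. Morulae labelled Gabpb1 KO had 42.6, 8.05 and 27.5 CPM and the non-KO ones 17.5 and 13.0 CPM. The log2 fold changes of 0.16 (SE 0.75) and 0.77 (SE 0.77) have errors as large as themselves, and the first turned to -0.21 under spike-in scaling. Blastocysts were at 20.9, 25.0 and 30.3 CPM (Alyref cross), 18.7, 21.3 and 3.65 CPM (Gabpb1 cross) and 19.9, 20.2 and 10.8 CPM (WT parents). Sex of the embryos was not used, although Amot is X-linked.

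Amotl2 encodes a second member of the angiomotin family and lies at chr9:102716672-102733418 on the plus strand. In the Alyref cross it was at 13.9, 17.5 and 1.55 CPM in non-KO morulae and at 29.9, 41.6 and 46.2 CPM in non-KO blastocysts. Every blastocyst was above every morula, with a log2 fold change of 1.84 (SE 0.67), but the adjusted p of 0.0774 missed the threshold. DESeq2's Wald test gave 1.84 with an adjusted p of 0.0225, and limma with embryo weights gave 1.81 with 0.00456. Of all 18410 genes these called 3762 and 7236. The epiblast and trophectoderm marker sums given for Wwtr1 separate these embryos as Amotl2 does, and their part was not tested. Alyref KO morulae had 5.28 and 3.93 CPM, within the range of the non-KO morulae (-1.26, SE 0.78).

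In the Gabpb1 cross Amotl2 was at 35.7 and 11 CPM in non-KO morulae, 26.0, 5.28 and 9.43 CPM in morulae labelled KO and 33.8, 26.2 and 28.3 CPM in blastocysts. The first non-KO morula was above all 3 blastocysts of its cross, so the stage difference was 0.33 (SE 0.73). WT blastocysts had 39.8, 34.2 and 41.2 CPM. Thus 9 of the 10 morulae were below the lowest of the 9 blastocysts (26.2 CPM). The 2 morulae with the most Amotl2, Gabpb1 cross non-KO morula 1 and the morula labelled Gabpb1 KO 1, had trophectoderm marker sums of 4572 and 2643 CPM. Alyref cross non-KO morula 3, with the least, had 2102 CPM, the highest sum of its group. The part of these markers in the Amotl2 levels was not tested.

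**Figure D2:**
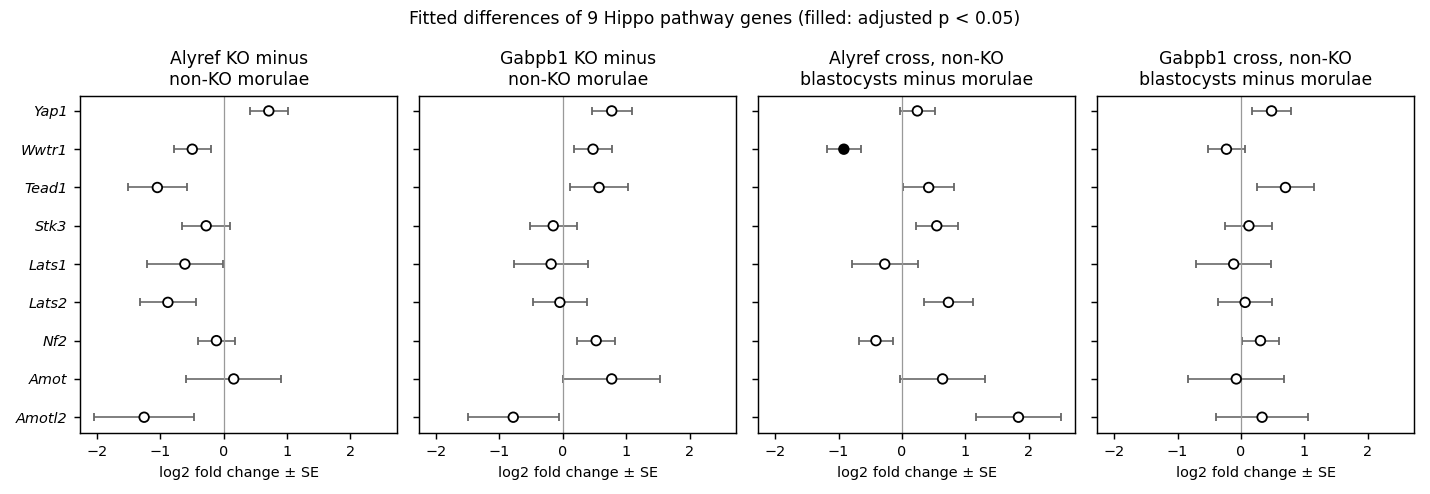
Fitted log2 fold change (horizontal axes) with its SE for each of the 9 genes in 4 comparisons; a filled point has an adjusted p under 0.05. The 1 filled point is Wwtr1 at -0.92 in the Alyref cross stage comparison, and the widest bars belong to Amot and Amotl2.

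In the Alyref KO comparison 0 of the 9 passed edgeR's test, where 0.228% of all genes did, and 2 had an unadjusted p under 0.05 (Yap1 and Tead1), as did 12.1% of all genes. DESeq2's Wald test called 0 of the 9 as well, and 502 of all 18410 genes. Their log2 fold changes were above 0 for Yap1 and for Amot (which turned under spike-in scaling), as for 46.5% of all genes, with a median of -0.50 against -0.04 over all genes tested. The KO embryos did not overlap with the others for 4 of the 9, Yap1 above and Tead1, Lats1 and Lats2 below, where 24.9% of all genes did not overlap. For the read-through entry that the table also lists as Lats2 they overlapped.

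The Gabpb1 comparison likewise called 0 of the 9 genes, against 1.65% of all genes, and 1 (Yap1) had an unadjusted p under 0.05, against 18.9%. DESeq2's Wald test called 0 of the 9 and 1284 of all 18410 genes. The median log2 fold change was 0.48 against 0.06 over all genes. The embryos did not overlap for 1 of the 9, Yap1, above in those labelled KO, where 32.2% of all genes did not overlap and 15.8% were above. Under spike-in scaling the median of all genes moved to -0.40, and 7 of the 9 genes were above that median. The trophectoderm marker sums were 351 to 2643 CPM in the morulae labelled Gabpb1 KO and 2706 to 4572 CPM in the non-KO morulae, without overlap, and their part in these differences was not tested.

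All 9 differences between the KO differences (Gabpb1 minus Alyref) were above 0, from 0.06 for Yap1 to 1.62 for Tead1, but 7 of the 9 were under spike-in scaling, where Yap1 and Stk3 were below. The median of all genes was 0.12, with 8 of the 9 above it. Under spike-in scaling that median was -0.33, with all 9 above it. Above 0 were 54.8% of all genes. None of the 9 was called, where 0.907% of all genes were, and 2 (Wwtr1 and Tead1) had an unadjusted p under 0.05, against 16.8%. DESeq2's Wald test called 0 of the 9 and 894 of all 18410 genes.

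Between the stages, non-KO blastocysts of the Alyref cross did not overlap with the non-KO morulae for 3 of the 9 genes, Amotl2 above and Wwtr1 and Nf2 below, where 38.9% of all genes did not overlap. The Gabpb1 cross had 1 such gene, Yap1 above, where 23.1% of all genes did not overlap and 11.4% were above, and called 0 of the 9, as it did 0% of all genes. Of the 9 genes 0 had an unadjusted p under 0.05 there, against 6.72%. DESeq2's Wald test called 0 of the 9 and 57 of all 18410 genes. Under spike-in scaling the median of all genes moved to -0.34 in the Alyref cross and -0.86 in the Gabpb1 cross. Against these medians Wwtr1 was at -0.75 and -0.22 and Amotl2 at 2.26 and 0.32. In the Gabpb1 cross trophectoderm marker sums were 2706 to 4572 CPM in morulae and 4964 to 5966 CPM in blastocysts, while epiblast sums overlapped. By gene, with TMM scaling, all 9 epiblast markers had log2 fold changes above 0 (median 0.53), and so had 9 of the 10 trophectoderm markers. So did 9508 of all 18410 genes, and 0 of these markers were called.

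Between non-KO morulae of the 2 crosses 0 of the 9 were called, against 1.86% of all genes, and 1 (Wwtr1) had an unadjusted p under 0.05, against 22.4%. DESeq2's Wald test called 0 of the 9 and 1709 of all 18410 genes. Gabpb1 cross morulae were below every Alyref cross morula for 4 of the 9 genes, Yap1, Wwtr1, Lats1 and Nf2, where 36.1% of all genes did not overlap and 18.2% were below. Marker sums of these groups did not overlap either, with 654 to 2102 CPM in the Alyref cross and 2706 to 4572 CPM in the Gabpb1 cross for trophectoderm, and 911 to 1022 CPM and 362 to 644 CPM for epiblast. Their part in the 4 genes was not tested. Non-KO blastocysts of either cross gave 0 of the 9 genes called against WT blastocysts by edgeR or DESeq2, as 0% of all genes by edgeR. DESeq2 called 15 of all 18410 genes for the Alyref cross and 42 for the Gabpb1 cross. An unadjusted p under 0.05 was found for 0 of the 9 in the Alyref cross, against 2.94% of all genes, and for 1 (Nf2, 0.57, adjusted p 0.814) in the Gabpb1 cross, against 6.10%. For 2 of the 9 the Alyref cross blastocysts did not overlap with the WT ones (Amot above, Lats1 below), against 12.2% of all genes. For the Gabpb1 cross these were Lats1 and Amotl2, both below, where 12.8% of all genes did not overlap and 6.33% were below. Sums of 6 primitive endoderm markers were higher in the WT blastocysts, 239 to 275 CPM, than in those of the Alyref cross (124 to 172 CPM) and the Gabpb1 cross (139 to 212 CPM), and their part was not tested.

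The balance within pairs of paralogs was taken as the log2 ratio of FPKM within an embryo (after adding 0.1). FPKM here is TMM-scaled, and the added 0.1 lets scaling enter the ratios of genes at low levels such as Lats1. For the coactivators, Wwtr1 to Yap1, it was 3.11, 3.76 and 2.73 in the Alyref cross non-KO morulae and 2.86 and 3.21 in those of the Gabpb1 cross. Non-KO blastocysts were at 2.28, 2.02 and 1.91 in the Alyref cross and at 2.29, 2.76 and 2.03 in the Gabpb1 cross. Only the blastocyst at 2.76 reached the range of the morulae. The mean ratio was 3.13 ± 0.40 (SD, n = 5) in morulae and 2.21 ± 0.31 (SD, n = 6) in blastocysts. The difference of -0.92 had a two-sided exact permutation p of 0.01 with labels permuted within crosses, and 0.03 after Benjamini-Hochberg adjustment over 3 ratios. Leaving out 1 of the 11 embryos kept the adjusted p under 0.05 for each of the 5 morulae and for Alyref cross blastocyst 2. It was 0.06 without Alyref cross blastocyst 1 or 3 (difference -0.93 and -0.86) and 0.05 without Gabpb1 cross blastocyst 1, 2 or 3 (-0.93, -1.03 and -0.88). Without any 1 of these Gabpb1 cross blastocysts the exact permutation p was 0.0167, the smallest possible there.

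Within the crosses the coactivator ratio differed by -1.13 (exact p 0.1, the smallest this design allows) and -0.68 (exact p 0.2). WT blastocysts, outside that test, were at 1.94, 1.81 and 2.20. Alyref KO morulae were at 2.36 and 1.68, below all 5 non-KO morulae, and the second was also below all 9 blastocysts. Morulae labelled Gabpb1 KO were at 2.08, 3.30 and 3.11, on both sides. The ratio of KO morulae was not tested.

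**Figure D3:**
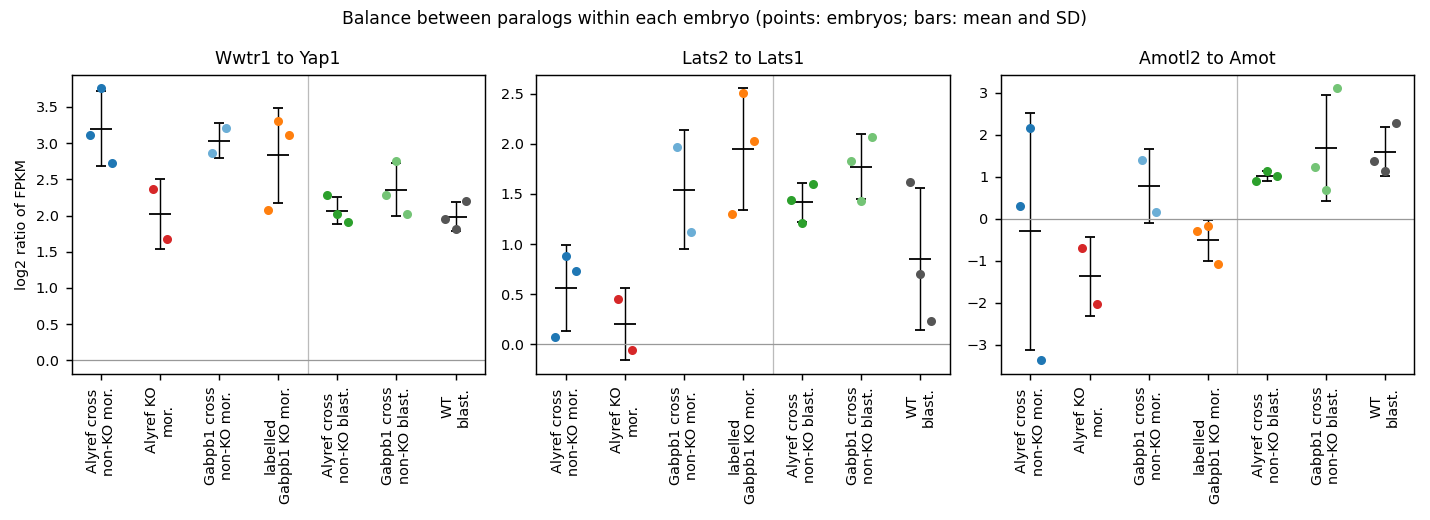
Log2 ratio of FPKM between paralogs in each embryo (vertical axes) for the 7 groups (horizontal axis), with mean and SD; a grey line separates morulae from blastocysts. For Wwtr1 to Yap1 the non-KO morulae lie between 2.73 and 3.76, and the blastocysts and Alyref KO morulae between 1.68 and 2.76.

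For the kinases, Lats2 to Lats1, the log2 ratio was 0.07, 0.88 and 0.73 in Alyref cross non-KO morulae and 1.96 and 1.12 in those of the Gabpb1 cross. Non-KO blastocysts were at 1.44, 1.21 and 1.60 and at 1.83, 1.43 and 2.06. The means of 0.95 ± 0.69 (SD, n = 5) and 1.59 ± 0.31 (SD, n = 6) differed by 0.64, with an exact permutation p of 0.03 and an adjusted p of 0.045. The blastocyst group was above all morulae in the Alyref cross (0.86) but not in the Gabpb1 cross (0.23). WT blastocysts, at 1.62, 0.70 and 0.23, overlapped with the morulae. The ratio also rests on the uncertain Lats2 counts, and with 1 added to FPKM the adjusted p was 0.0525. Leaving out 1 embryo kept the adjusted p under 0.05 only without Gabpb1 cross non-KO morula 1 (0.0188) or Alyref cross blastocyst 2 (0.045). The third ratio, Amotl2 to Amot, differed by 1.21 with an exact permutation p of 0.28, and by 0.34 without Alyref cross non-KO morula 3, where it was -3.37.

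The list of other pathway genes held 41 symbols, of which 40 were in the table and 33 were tested. In the Alyref KO comparison 0 of the 33 were called by edgeR or DESeq2, against 0.228% of all genes by edgeR and 502 of 18410 by DESeq2. An unadjusted p under 0.05 was found for 1 of the 33, against 12.1% of all genes. The smallest p belonged to Sav1, the scaffold of the MST kinases, at 30.9 and 19 CPM in the KO morulae and 12.1, 15.5 and 6.99 CPM in the non-KO ones. Sav1 was above in both KO embryos, with a log2 fold change of 1.11 (SE 0.41) and an adjusted p of 0.266. The next were Taok1, a kinase upstream of the MST kinases (-0.70, SE 0.47), and Frmd6, a membrane partner of merlin (0.72, SE 0.49). The median over the 33 was -0.13.

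In the Gabpb1 comparison 1 of the 33 was called, Wwc2, which encodes a KIBRA family scaffold of the LATS kinases, against 1.65% of all genes. An unadjusted p under 0.05 was found for 5 of the 33, against 18.9% of all genes. Wwc2 was at 92.7, 67.1 and 76.7 CPM in the morulae labelled KO and at 38.3 and 29.5 CPM in the non-KO ones. All labelled morulae were above all other morulae of both crosses. Blastocysts had 33.4 to 67.8 CPM. The log2 fold change was 1.22 (SE 0.28) with an adjusted p of 0.0435. It was 0.86 with an adjusted p of 0.729 under spike-in scaling, and leaving out 1 embryo gave 1.04 to 1.42 with adjusted p from 0.0464 to 0.319, with the call kept only without the labelled morula 1. Without that morula 966 of all 18410 genes were called. The median over the 33 was -0.17.

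In the Alyref cross stage comparison 2 of the 33 were called, both higher in blastocysts, against 13.0% of all genes. An unadjusted p under 0.05 was found for 15 of the 33, against 31.1% of all genes. Rassf1, a regulator of the MST kinases, was at 26.5, 17.0 and 22.0 CPM in morulae and 54.0, 68.8 and 84.7 CPM in blastocysts. The groups were well apart, with a log2 fold change of 1.66 (SE 0.31) and an adjusted p of 0.0078. Cdh1, which encodes E-cadherin of the cell junctions, was at 59.7, 65.3 and 144 CPM in morulae and 249, 259 and 256 CPM in blastocysts (1.51, SE 0.40, adjusted p 0.0272). Leaving out 1 embryo kept the call of Rassf1 (adjusted p at most 0.0428) but that of Cdh1 only without non-KO morula 3, its highest morula (2.03, adjusted p 0.00392). Without that morula 4560 of all 18410 genes were called. Both calls were lost under spike-in scaling (1.32 and 1.04, adjusted p 0.362 and 0.58).

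By role in that comparison, 0 of 9 other genes of the kinase relay were called, against 13.0% of all genes. All 9 had log2 fold changes below 0 (median -0.54), as did 9521 of all 18410 genes. Spike-in scaling moved the all-gene median to -0.34, and all 9 were below that median too. Of the 13 adaptor and upstream genes 10 were above 0 (median 0.46), and 8 under spike-in scaling, where 10 were above the median of all genes. Of the 5 nuclear genes 0 were called and all 5 were above 0 (median 1.08), and 4 under spike-in scaling, among the 5 Tead2 (1.55, SE 0.58) and Tead4 (0.26, SE 0.27). Of the 6 target genes 2 were above 0, and 0 were called. Cdx2 was at 6.73, 11.1 and 14.7 CPM in morulae and 32.9, 27.8 and 24.9 CPM in blastocysts, with a log2 fold change of 1.40 (SE 0.45) and an adjusted p of 0.0532. Gata3 followed with 1.84 (SE 0.61) and 0.0573, and both genes also stand in the trophectoderm marker list. Ctgf had a log2 fold change of -1.45 (SE 0.62) and Cyr61 of -0.45 (SE 0.73), neither past the threshold. Ankrd1, at -4.22 the lowest of the 6, and Sox2 were also below 0 and not called. Sox2 is in the list as a gene that nuclear YAP lowers. Tead2, Tead4 and the 6 target genes were chosen for mention after their values were seen.

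The Gabpb1 cross stage comparison called 0 of the 33 with edgeR or DESeq2, against 0% of all genes with edgeR and 57 of 18410 with DESeq2. An unadjusted p under 0.05 was found for 1 of the 33, against 6.72% of all genes. That gene was Rassf1, at 37.7 and 24.3 CPM in morulae and 72.5, 42.7 and 74.1 CPM in blastocysts (1.03, SE 0.35, adjusted p 0.592). Next were Wwc2 (0.55, SE 0.27) and Wwc1, which encodes KIBRA (0.95, SE 0.55).

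The genes whose level was most like that of each of the 9 over the 19 embryos were found by Pearson's r of log2(CPM + 1) among 11424 genes with a mean of at least 5 CPM. All 19 embryos enter, so stage, cross and depth are shared by the points. For Wwtr1 they were Prpsap2 and Rbm8a (both r 0.92), and for Yap1 Gm4332 (0.82) and Ndor1 (0.78). For Tead1 they were Snx18 (0.89) and Ly6g6e (0.88), for Stk3 1700020I14Rik (0.94) and Pcsk6 (0.91), and for Lats1 Scand1 (0.81) and 2310039H08Rik (0.80). For Lats2 they were Hnrnpa0 (0.86) and Marcks (0.84), for Nf2 Taf4b (0.80) and Klhdc4 (0.78), for Amot Zfc3h1 (0.84) and Lrba (0.82), and for Amotl2 Npepl1 (0.88) and Actn4 (0.85). None of the 9 was among the 2 closest genes of another.

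Among the 9 genes themselves, relations were computed within each stage, 72 in all, and none passed Benjamini-Hochberg adjustment. In the 10 morulae the strongest was that of Lats2 with Amotl2, with Pearson's r 0.77 (permutation p 0.00852) and Spearman's rho 0.78 (permutation p 0.0110). Without the 2 embryos farthest from the median of Lats2 r was 0.78. The adjusted p was 0.307 for r and 0.397 for rho. In the 9 blastocysts it was that of Yap1 with Lats2, with r 0.82 (exact permutation p 0.00679), rho 0.87 (0.00451), r 0.65 without the 2 farthest embryos and adjusted p 0.307 and 0.325. Groups and crosses are mixed within each stage, and values within them could not be had with 2 or 3 embryos each.

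**Figure D4:**
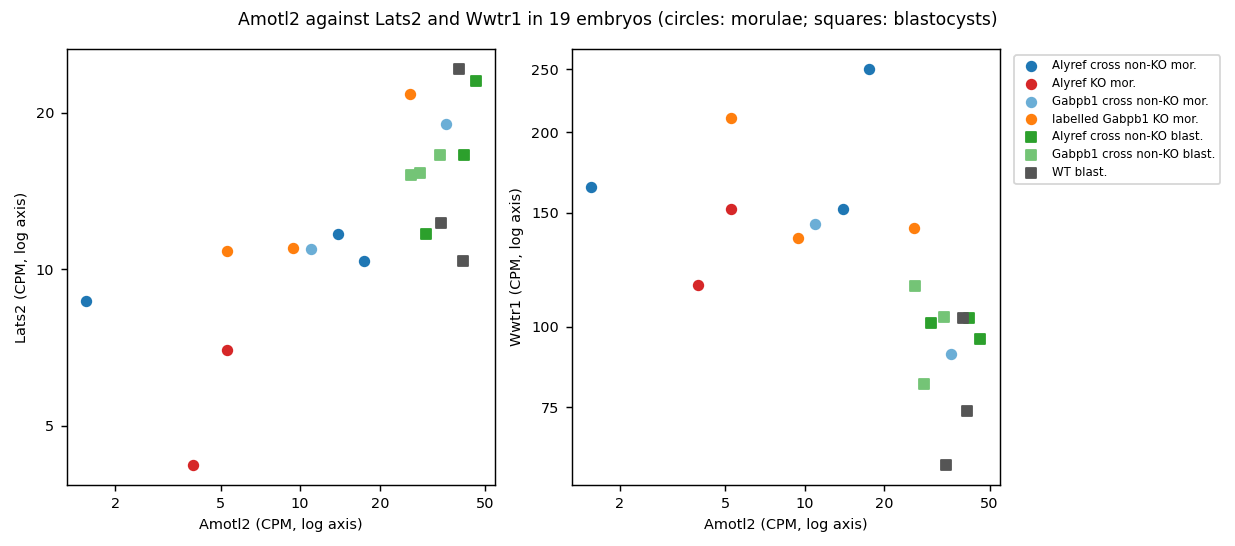
CPM of Amotl2 (horizontal log axes) against Lats2 (left, vertical log axis) and Wwtr1 (right, vertical log axis) in 19 embryos; circles are morulae, squares blastocysts, and colours the 7 groups. Blastocysts lie at high Amotl2 and low Wwtr1, with Gabpb1 cross non-KO morula 1 (35.7 and 90.6 CPM) among them.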

How the data were processed

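PolyA RNA of 19 single embryos was amplified over 16 PCR cycles with ERCC spike-ins. The authors deposited 1 table of counts per gene and embryo, with merged exon length in bases. Though the table is called FPKM, the deposited values are whole numbers and were taken as counts. The submitters' processing notes name Trimmomatic, Trim Galore, cutadapt, STAR, featureCounts and mm10. Versions, strand setting and treatment of shared reads are not given in the sources used here. Of 53379 gene entries, 50604 matched GENCODE M21 (GRCm38) by identifier, all with the same position.

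FPKM was computed from counts and exon length for the filter, and from TMM-scaled CPM for levels and ratios. Counts were tested with edgeR 4.0.16 (R 4.3.3) by its quasi-likelihood test, with TMM scaling without ERCC entries, 1 mean for each of 7 groups over 19 embryos, and Benjamini-Hochberg adjustment over 18410 genes. A gene is called at an adjusted p under 0.05, and a p above it does not show that levels were alike. Every adjusted p of a gene is from this test unless another tool is named. Alternatives were DESeq2 1.42.0, limma 3.58.1 with embryo weights, DESeq2 size factors, spike-in scaling, no filter, a replicate block, the compared groups alone, other pseudocounts, single crosses and leaving out each embryo. The difference between the stage differences was added after values were seen.

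Named genes were the 9, the 2 most similar genes of each, and other pathway genes that were called, or the 3 of smallest p where none was. The 9 genes and the lists were chosen with earlier results of these data known. Replicate numbers run within groups. The labels name no molecular identifiers, so counting errors do not include those of PCR. The test was checked on simulated counts.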

Additional observations from a re-analysis of the deposited data

How the results depend on the processing

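Groups of 2 or 3 embryos limit every test. The shares of all genes called, given beside the counts, are themselves unsteady. The 2402 genes called in the Alyref cross stage comparison became 346 to 4560 when 1 embryo was left out, 24 with the compared groups alone and 352 with spike-in scaling. The 42 of the Alyref KO comparison became 0 to 128 and the 303 of the Gabpb1 KO comparison 48 to 966 when 1 embryo was left out. Counts of called genes moved as follows. For the 9 genes in the Alyref cross stage comparison (1 called) they were 0 with spike-in scaling, without the filter and with the compared groups alone, 2 with DESeq2's Wald test (Wwtr1 and Amotl2), 4 with embryo weights (with Stk3 and Tead1 added), and 0 to 2 when 1 embryo was left out. For the other pathway genes there (2 called) they were 0, 4, 0, 7 and 20 in that order, and 1 to 12. Of all 18410 genes DESeq2's Wald test called 3762 in that comparison, and embryo weights 7236. For the other pathway genes in the Gabpb1 comparison (1 called) they were 0 in the first 3 settings and 3 with DESeq2, and 0 to 2. DESeq2 called 1284 of all 18410 genes in it. Between non-KO morulae of the crosses (0 of 9 called) embryo weights gave 1 (Stk3), and leaving out 1 embryo gave 0 to 1. Embryo weights called 2623 of all 18410 genes between these morulae.

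Signs turned under spike-in scaling for Amot in the Alyref KO comparison (-0.214), Wwtr1 in the Gabpb1 KO comparison (-0.0978) and Yap1 in the Alyref cross stage comparison (-0.107). The medians of all genes were -0.06, -0.40 and -0.34 there. Amot was below its median, and Wwtr1 and Yap1 were above theirs. In the Gabpb1 cross stage comparison they turned for Yap1 (-0.384), Lats2 (-0.814), Amotl2 (-0.534), Nf2 (-0.588), Stk3 (-0.81), Tead1 (-0.114) and Wwc2 (-0.334), where the median of all genes was -0.86. Embryo weights turned Stk3 (0.323) and Taok1 (0.0206) in the Alyref KO comparison.

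Same-numbered embryos did not deviate together (r from -0.128 to 0.148), so the numbers pair nothing. With the replicate number as a block Wwtr1 kept its call (-0.897, adjusted p 0.0399), Lats2 in the Gabpb1 KO comparison was 0.00238 and Stk3 in the Gabpb1 cross stage comparison -0.00798. The block changed no other call of the 9 genes.

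Leaving out 1 embryo turned signs within these ranges: in the Alyref KO comparison Amot -0.462 to 0.898, Stk3 -0.625 to 0.394 and Taok1 -1.16 to 0.127. In the Gabpb1 KO comparison they were Lats1 -1.35 to 0.204, Lats2 -0.457 to 0.405 and Amotl2 -1.66 to 0.309, and in the Alyref cross stage comparison Lats1 -0.476 to 0.225. In the Gabpb1 cross stage comparison they were Wwtr1 -0.524 to 0.143, Lats1 -0.302 to 0.0563, Lats2 -0.277 to 0.517, Amot -0.447 to 0.39, Amotl2 -0.28 to 1.42 and Stk3 -0.0726 to 0.216.

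The Wwtr1 to Yap1 ratio difference was -1.13 and -0.676 within the crosses, where 0.05 cannot be reached, and -1.03 to -0.763 without 1 embryo (adjusted p 0.0188 to 0.06). The Lats2 to Lats1 difference was 0.403 with 1 added to FPKM, 0.855 and 0.228 within the crosses, and 0.419 to 0.892 without 1 embryo (adjusted p 0.0188 to 0.135). The causes were not tested.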
